A study of Homo sapiens with 12 samples.

Results

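The genes described here are 58 neighbours of PRKRA, the gene of the double-stranded RNA binding protein PACT, on the long arm of human chromosome 2, bands q31 to q33. They were taken as the rows of the deposited gene count table, out of 57500, that carry these 58 names, and every one of them starts between 170 and 200 Mb of chromosome 2 (GRCh38; genes and coordinates from GENCODE 29). The segment was proposed because its genes were lower in HCC1806 cells after depletion of PACT. The HCC1806 comparison therefore chose the members and is given below as a description, with no test on them. Comparisons within MDA-MB-468 and between the control cells of the lines were not used for that choice and are tested, although the latter shares its HCC1806 control libraries with the comparison that chose the members. RNA was sequenced from 2 established lines of triple-negative breast cancer, a tumour class that lacks estrogen and progesterone receptors and HER2 amplification, in 4 groups of 3 libraries, 12 in all. In HCC1806 the groups were the control guide sgC1 and the PRKRA guide sgPACT-2, and in MDA-MB-468 the control guide sgNTA and sgPACT-2. The design text gives CRISPR-Cas9 as the means of depletion. Whether a group was a clone or a pool of cells, and how long after editing RNA was taken, is not given in the sources used here.

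PACT binds double-stranded RNA and is best known as a regulator of the RNA-dependent kinase PKR, and it is also a partner of Dicer. Its chromosomal neighbours are not a pathway. They encode proteins of many unrelated functions, among them the mitochondrial chaperonin (HSPD1 and HSPE1), a core spliceosome subunit (SF3B1), integrin chains (ITGA6 and ITGAV), the iron exporter ferroportin (SLC40A1) and a subunit of the mitochondrial ATP synthase (ATP5MC3). What they share is position, and some of them share more than that: genes that lie head to head on opposite strands start from the same short stretch of DNA.

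Among the members, 4 such head-to-head pairs have RefSeq starts close enough for both promoters to be read from 1 stretch. These stretches are shown because they are the closest physical links between members, whose values can then be compared within each pair. Each is the sequence strictly between the starts of the pair, on the plus strand of chromosome 2, 5′ to 3′ (RefSeq, GRCh38.p14), so that the gene named first is read leftwards and the gene named second rightwards. Capitals mark matches, on either strand, to the 6 motifs searched: the CCAAT box (CCAAT), the E-box (CACGTG), the core of the NRF1 site (TGCGCA), the GC box (GGGCGG), a heat shock element (TTCNNGAA) and an ATF4 element (TGATGNAA). The first pair is chr2:197500275-197500378, the second chr2:189784340-189784449, the third chr2:174395713-174395729 and the last chr2:171433991-171434225.
HSPD1 and HSPE1: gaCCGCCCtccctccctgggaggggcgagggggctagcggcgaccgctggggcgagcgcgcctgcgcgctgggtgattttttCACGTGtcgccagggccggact
ORMDL1 and PMS1: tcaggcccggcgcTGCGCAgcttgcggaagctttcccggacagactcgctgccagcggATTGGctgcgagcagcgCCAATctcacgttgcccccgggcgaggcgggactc
CIR1 and SCRN3: aagggggaacttccgag
METTL8 and DCAF17: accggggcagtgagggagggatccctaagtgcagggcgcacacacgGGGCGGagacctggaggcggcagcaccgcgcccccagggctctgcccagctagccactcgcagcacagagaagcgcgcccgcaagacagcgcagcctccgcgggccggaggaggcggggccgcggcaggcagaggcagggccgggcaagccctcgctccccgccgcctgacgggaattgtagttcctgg

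The HSPD1 and HSPE1 stretch is 104 bases long with 74% G and C, and holds a GC box near the HSPD1 start and an E-box near the HSPE1 start. Between ORMDL1 and PMS1 lie 110 bases with an NRF1 core and a CCAAT box on each strand. The CIR1 and SCRN3 starts are separated by only 17 bases, and no motif was found there. Between METTL8 and DCAF17 the 235 bases held 1 GC box. Over all members, 54 of 58 were matched to a RefSeq promoter of 300 bases (250 upstream and 50 downstream of the start); GPR155, ATP5MC3, SESTD1 and COL5A2 were not. These 54 promoters had a median GC content of 64.8%, against 58.7% over the 34796 promoters of the table. A GC box was present in 33 of 54 (61.1%, against 44.9% of all promoters), a CCAAT box in 22 (40.7%, against 34.6%), an NRF1 core in 9 (16.7%, against 8.18%) and an E-box in 5 (9.26%, against 7.2%). A heat shock element was found in 3 (5.56%, against 7.76%) and an ATF4 element in 0 (against 3.63%). These are matches of letters in a window, and no binding was measured.

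Library totals were 18640633 to 24704877 counts for HCC1806 cells, and for MDA-MB-468 cells 34581754 to 44790741. The members were well covered: the mean reached 50 counts for 54 of 58 in each line, and in MDA-MB-468 CERKL and WIPF1 were the members with a mean under 10. Replicate HCC1806 libraries varied more, with a biological coefficient of variation of 0.204 against 0.0936 in MDA-MB-468 when each line was fitted alone. Epithelial markers (EPCAM, CDH1, KRT8 and KRT18) summed to 845 to 2315 CPM per library (counts-per-million after TMM scaling), while leukocyte markers summed to at most 4.46 and endothelial markers to at most 4.02. Fibroblast markers, most of it COL1A1, summed to 29.9 to 44.9 CPM in HCC1806 controls and 39.7 to 53.1 in its depleted libraries. Basal markers (KRT5, KRT14, KRT17 and EGFR) summed to 1877 to 2088 CPM in HCC1806 controls and 1402 to 1503 in its depleted libraries, without overlap, with mean KRT5 at 767 and 406 CPM. The means of KRT14 and EGFR were also lower there, while that of KRT17 was higher (19.5 and 27.8 CPM). In MDA-MB-468 the basal sum was higher after depletion, at 10030 to 10150 CPM in controls and 10580 to 11910 in depleted libraries, without overlap. The receptor genes ESR1, PGR and ERBB2, nearly all of it ERBB2, together gave 200.4 to 232 CPM in HCC1806 controls and 166 to 181 in its depleted libraries, again without overlap. In MDA-MB-468 they gave 143 to 152 and 131 to 139. What part these markers have in the members' lower values was not tested. Mitochondrial transcripts made up 11.6% to 15% of HCC1806 counts, where control and depleted libraries overlapped, and 6.31% to 8.9% of MDA-MB-468 counts.

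The targeted gene was read first. PRKRA (ENSG00000180228, chromosome 2, 178431414 to 178451512, minus strand) measured 78.6, 82.6 and 72.1 CPM in HCC1806 cells with the control guide and 37.5, 36.1 and 37.3 with sgPACT-2. All depleted libraries lay far below all controls, and the log2 fold change was -1.07 (SE 0.10; edgeR quasi-likelihood test, adjusted p-value 1.7e-05). In MDA-MB-468 it measured 41.1, 45.9 and 46.9 CPM in controls and 39.2, 35.5 and 41.6 after depletion. Those groups overlapped, and the log2 fold change of -0.20 (SE 0.10) did not pass (edgeR, adjusted p-value 0.958). An edit by Cas9 need not lower a transcript, so in MDA-MB-468 the depletion of PACT rests on the labels. On the opposite strand, PJVK and AC009948.1 share exon bases with PRKRA.

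In HCC1806, 53 of the 58 members had a lower fitted level in depleted than in control cells, with a median log2 fold change of -0.38 (quartiles -0.52 and -0.25), beside a median of 0.01 and 48.5% negative values over the 27029 genes tested. The median was negative in each of the 11 role groups into which the members were sorted. Because the libraries are bulk RNA, fewer cells with a transcript and less of it per cell cannot be told apart. At an adjusted p-value under 0.05 in edgeR, 13 members were lower and 0 higher, where the background was 1.32% of all genes tested called lower, 1.16% called higher and 2.49% called in either direction. Because this contrast chose the members, nothing is read from that count. The count changed with the model, though not always with the share of all genes called. With the replicate number as a block it was 27, where 7.2% of all genes were called in either direction. With the HCC1806 libraries fitted alone it was 0, where 0.315% were. With library size only as the scale 3 members were lower and 1 higher, where 2.93% of all genes were called. Control and depleted libraries did not overlap for 28 members, 27 of them lower (background 8.17%) and 1 higher (background 8.51%). Among the 54 members with a mean of at least 50 counts, 50 were negative, 13 called lower and 0 higher. Over all 15626 genes tested at that depth, 8497 were negative, 353 called lower and 242 higher. Without overlap, 26 of these members were lower and 1 higher, beside 1803 and 1342 of these genes. The 13 called lower were CDCA7, ATP5MC3, HNRNPA3, NCKAP1, FAM171B, COL5A2, OSGEPL1, NAB1, NABP1, SLC39A10, GTF3C3, SF3B1 and HSPD1. The 5 members with a positive value were SLC25A12, RAPGEF4, SP3, MTX2 and COQ10B. Without control replicate 1, or without depleted replicate 2, the number called was 2, with 1.03% and 1.35% of all genes called. It was 7 without control replicate 2 (1.42%) and 4 to 8 without any 1 of the MDA-MB-468 libraries (1.52% to 2.03%), which enter this contrast through the shared estimate of the spread. In all, 29 members share exon bases with another gene, 7 of them on the same strand, and reads of such genes cannot be told apart here; the other 29 members had a median of -0.37.

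**Figure D1:**
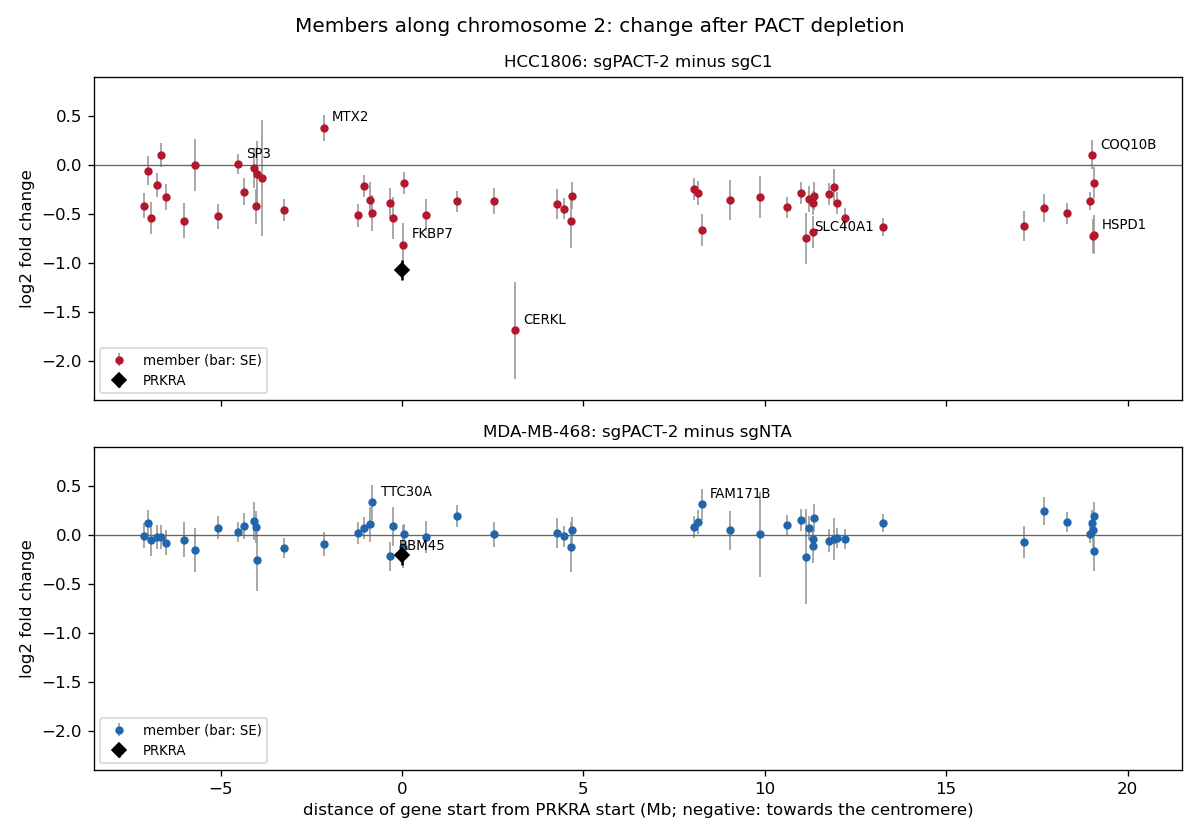
Log2 fold change (y axis, model value with SE) of each member against the distance of its start from the PRKRA start (x axis, Mb), for HCC1806 (top) and MDA-MB-468 (bottom; CERKL and WIPF1 not drawn, at or near 0 counts there); the black diamond is PRKRA. In HCC1806 53 of 58 members lie below 0 with a median of -0.38, in MDA-MB-468 the members lie around 0 with a median of 0.02.

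Of the members that flank PRKRA, those on the side of lower coordinates are RBM45, an RNA-binding protein, and OSBPL6, an oxysterol-binding protein relative, and those on the other side are FKBP7, a peptidyl-prolyl isomerase of the endoplasmic reticulum, and PLEKHA3, which binds phosphatidylinositol 4-phosphate at the Golgi. Among members whose mean reached 50 counts, FKBP7 (178463664 to 178478600) had the lowest value, -0.82 (SE 0.23), with 4.71, 5.59 and 4.87 CPM in HCC1806 controls and 2.16, 2.82 and 3.57 in depleted libraries. Its groups did not overlap. RBM45 measured 8.76, 9.94 and 9.36 CPM in controls and 8.33, 6.07 and 7.14 after depletion, again without overlap (log2 fold change -0.38, SE 0.15). OSBPL6 measured 19.3, 10.3 and 10.2 and 11.5, 9.23 and 6.91 CPM, with control replicate 1 far above the other two and overlapping groups (-0.54, SE 0.22). PLEKHA3, on the far side of FKBP7, differed least of the 4: it measured 57.5, 59.5 and 55.2 CPM in controls and 45.3, 48.5 and 58.02 in depleted libraries, with depleted replicate 3 among the controls (-0.18, SE 0.11). The 4 nearest members thus differed among themselves in value.

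Among the 7 mitochondrial members, HSPD1 and HSPE1 encode the chaperonin HSP60 and its cochaperonin HSP10, which fold imported proteins. HSPD1 measured 550.2, 382 and 359.6 CPM in HCC1806 controls and 347, 238 and 197.5 after depletion. HSPE1 measured 32.9, 26.3 and 22.3 and 21.8, 17.6 and 10.8 CPM in the same libraries. In both genes replicate 1 was the highest library of its group, and the highest depleted library came just under the lowest control. Their log2 fold changes, -0.72 (SE 0.17) and -0.71 (SE 0.20), were nearly equal, though HSPE1 came to -0.47 without depleted replicate 3. They are the pair that shares the 104-base stretch with the E-box printed above, and they also share exon bases in GENCODE 29, as HSPE1 does with the readthrough gene HSPE1-MOB4; both have processed pseudogenes, so their counts are uncertain. ATP5MC3, a c-subunit gene of the ATP synthase, went from 23.6, 21.7 and 19.9 to 16.7, 16.6 and 14.4 CPM without overlap (-0.45, SE 0.11). HIBCH, which acts in valine breakdown, had -0.30 (SE 0.11).

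The other 3 mitochondrial members were those with the highest values among the 58. MTX2, a metaxin of the outer mitochondrial membrane, measured 9.51, 8.41 and 9.06 CPM in controls and 12.2, 11.9 and 11.1 in depleted libraries. It was the 1 member whose depleted libraries all lay above all controls (0.38, SE 0.13). SLC25A12, the aspartate-glutamate carrier, measured 21.01, 24.6 and 17.96 and 22.7, 23.9 and 21.9 CPM (0.11, SE 0.12), and COQ10B, a coenzyme Q binding protein, 12.6, 9.49 and 10.8 and 13.7, 11.1 and 10.8 CPM (0.11, SE 0.15); in both the groups overlapped, and leaving out control replicate 3 (SLC25A12) or depleted replicate 1 (COQ10B) brought the value to 0 or just under it. COQ10B lies between SF3B1 and HSPD1, which both had negative values.

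**Figure D2:**
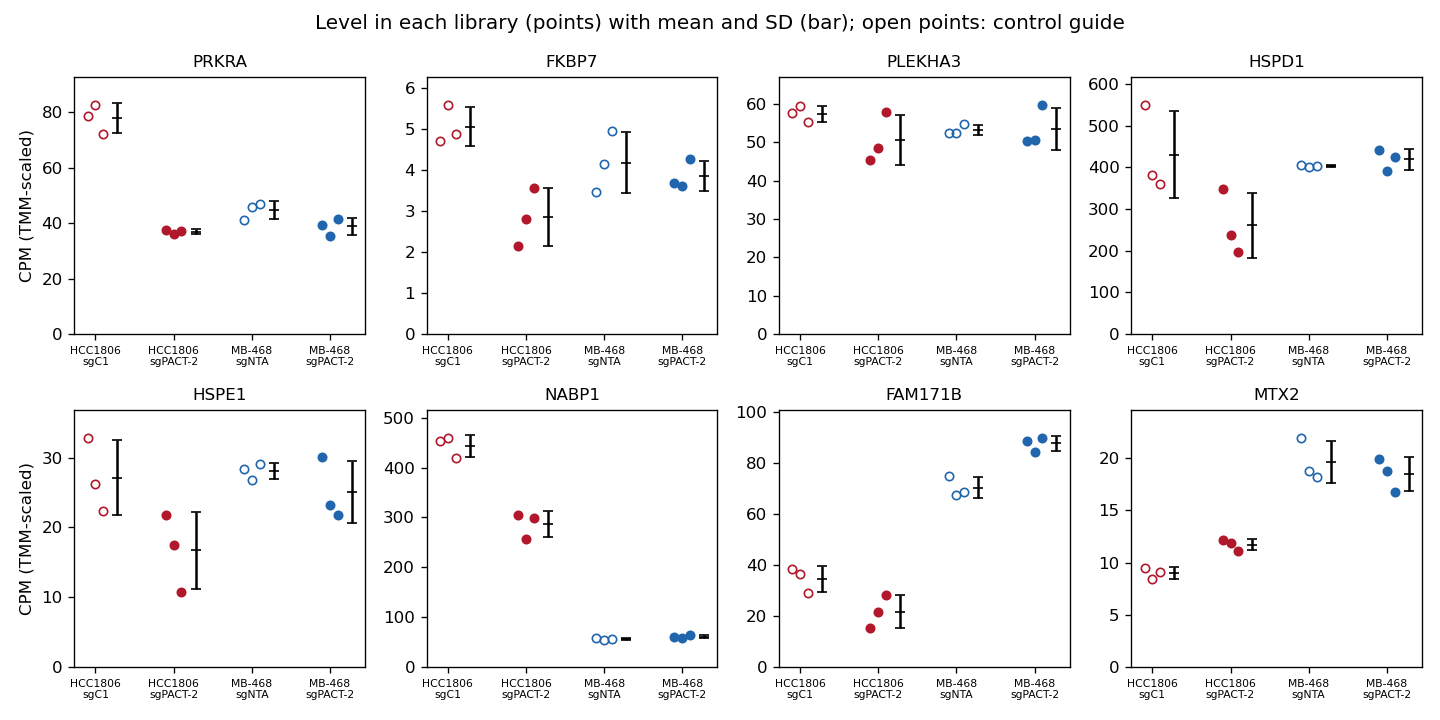
TMM-scaled CPM (y axis, from 0) in each of the 12 libraries for PRKRA and 7 members, with the mean and SD of each group of 3; open points are control guides and filled points sgPACT-2. In HCC1806 the depleted libraries lie below the controls for PRKRA, FKBP7, HSPD1, HSPE1, NABP1 and FAM171B and above them for MTX2, and in MDA-MB-468 FAM171B and NABP1 lie above their controls.

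All 3 metal transport members were among the 27 of 58 members that were lower without overlap (background 8.17%). SLC40A1, the only known cellular iron exporter in mammals, measured 14.9, 20.8 and 18.1 CPM in controls and 5.68, 12.3 and 13.96 in depleted libraries (-0.74, SE 0.26), with depleted replicate 1 the lowest; without that library the value was -0.45. SLC39A10, a zinc importer, had -0.62 (SE 0.16) and CYBRD1, a ferric reductase, -0.54 (SE 0.16). For adhesion and the cell surface, all 5 members were negative (median -0.43). ITGA6, the laminin receptor chain that pairs with ITGB4 in hemidesmosomes, was the most abundant member per length, with 205.3 CPM per kb of exon in HCC1806 controls, and had -0.56 (SE 0.18) with overlapping groups. ITGAV, the chain of the RGD-binding integrins, had -0.28, COL5A2, a fibrillar collagen chain, -0.43, TFPI, the inhibitor of tissue factor, -0.35, and FAM171B, a membrane protein, -0.66.

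The 5 members of RNA splicing and binding lay between -0.51 and -0.25. SF3B1, the SF3b subunit that holds the branch point, measured 434, 422 and 377 CPM in controls and 298, 307 and 350.0 after depletion (-0.37, SE 0.09), without overlap. HNRNPA3, an hnRNP with processed pseudogenes, had -0.51, CWC22, which brings the exon junction complex to the spliceosome, -0.37, and ZC3H15 -0.25. Of the 6 members of transcription and chromatin, 5 were negative: NAB1, a corepressor of EGR factors (-0.54), CDCA7 (-0.52), the TFIIIC subunit GTF3C3 (-0.49), the histone acetyltransferase HAT1 (-0.32) and the corepressor CIR1 (-0.028). SP3, a factor that binds the GC box, stayed at 55.2, 50.2 and 48.5 CPM in controls and 50.1, 49.4 and 55.5 in depleted libraries, a log2 fold change of 0.0099 (SE 0.10).

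The members of DNA repair and tRNA modification were all 4 negative (median -0.52). OSGEPL1, which makes the t6A base of mitochondrial tRNA, measured 15.5, 18.58 and 18.59 CPM in controls and 8.33, 11.5 and 12.9 in depleted libraries without overlap (-0.68, SE 0.16). NABP1, a single-stranded DNA binding protein, measured 453, 460.0 and 419 and 305, 256 and 298 CPM (-0.63, SE 0.09). Its gap between the groups was wide against the spread within each. PMS1, a MutL homologue, measured 49.3, 40.4 and 33.5 and 38.5, 31.9 and 29.1 CPM (-0.31, SE 0.14), and ORMDL1, a regulator of sphingolipid synthesis that starts head to head with it, 45.3, 35.8 and 30.9 and 27.8, 30.1 and 27.9 CPM (-0.38, SE 0.12). The partners differed by less than their SE, and both were highest in control replicate 1. The other pairs were less alike, though their differences were not tested: over the 17 bases CIR1 had -0.028 (SE 0.21) and SCRN3, a secernin, -0.42 (SE 0.18), and METTL8, an RNA methyltransferase, had -0.41 (SE 0.13) beside -0.055 (SE 0.15) for DCAF17, a ubiquitin ligase adaptor.

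Ciliary and transport members numbered 5, all negative and none past the threshold. TTC30A and TTC30B are near-identical genes of the intraflagellar transport train, so reads can be split between them. TTC30A measured 11.6, 6.401 and 9.53 CPM in controls and 6.42, 6.72 and 6.54 after depletion (-0.49, SE 0.19), and TTC30B 8.42, 12.6 and 8.13 and 6.32, 7.497 and 8.88 CPM (-0.35, SE 0.19). Both copies had overlapping groups and a control replicate 2 that stood apart, in opposite directions. The dynein intermediate chain DYNC1I2 had -0.20. Among the 9 members of signalling and the cytoskeleton 8 were negative: DUSP19, a phosphatase of the JNK pathway (-0.57), SESTD1 (-0.51), NCKAP1 of the WAVE complex (-0.45), the kinase STK17B (-0.44), the engulfment adaptor GULP1 (-0.33), INPP1, an inositol phosphatase (-0.22), MOB4 (-0.18) and WIPF1, a WASP-interacting protein (-0.13). RAPGEF4, the cAMP-activated exchange factor EPAC2, had 0.0024 (SE 0.27).

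The remaining members were negative throughout. They comprised the folding and ubiquitin genes DNAJC10, a disulfide reductase of the endoplasmic reticulum (-0.39), and UBE2E3 (-0.36), the nuclear pore gene NUP35 (-0.31) and the ribosome biogenesis factor WDR75 (-0.29). Among the metabolic genes were AGPS of ether lipid synthesis (-0.21), MFSD6 (-0.39), ASNSD1 (-0.34), the GTPase OLA1 (-0.27) and GPR155 (-0.086). CERKL, a ceramide kinase-like gene, had the lowest value of all, -1.69 (SE 0.49), on few counts: 3.54, 3.49 and 2.202 CPM in controls and 0.784, 0.7800 and 1.27 in depleted libraries, and it shares exon bases with NEUROD1 on its own strand.

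Along the chromosome, the 23 members before PRKRA had a median of -0.32 with 19 negative, and the 35 after it -0.39 with 34 negative. Without control replicate 1 these medians were -0.18 and -0.34, so that the value before PRKRA rests in part on that library. The members starting between 170 and 175 Mb were less lowered (median -0.20, n = 15) than those of the next 5 windows of 5 Mb, whose medians ran from -0.46 to -0.35. At the edge of lower coordinates, METTL8 measured 19.9, 17.1 and 16.6 CPM in controls and 13.5, 15.7 and 11.2 after depletion, and DCAF17 18.3, 11.9 and 13.9 and 15.04, 13.4 and 14.1. Just outside, UBR3 had 0.026 (SE 0.10), with 73.7, 62.4 and 68.2 CPM against 72.7, 62.2 and 73.05, and METTL5 -0.29 (SE 0.14), with 10.97, 12.2 and 10.7 against 10.2, 9.06 and 8.55. At the other edge stood HSPE1 and MOB4, a kinase adaptor with 13.4, 9.400 and 8.64 CPM in controls and 7.94, 10.5 and 9.28 after depletion. Beyond it came SPATS2L at -0.16 (SE 0.09; 83.1, 84.2 and 83.6 against 73.1, 73.02 and 78.3 CPM) and KCTD18 at -0.070 (SE 0.16; 4.503, 4.16 and 5.51 against 4.997, 3.55 and 4.94 CPM). Neither limit is marked by a sharp step between single genes.

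The members are not all genes of the segment. The table lists 403 genes there, of which 206 were tested; apart from the 58 members these were 148 genes, and the list of members was drawn up with these values known. Over the 148 the median was 0.00, with 74 negative (background 48.5%). Past the threshold 4 were lower (background 1.32%), among them NEMP2, CAVIN2 and PGAP1, and 0 higher (background 1.16%). At a mean of 50 counts or more there were 56 such genes, with a median of -0.14 and 37 negative, against -0.38 over the 54 members at that depth. The 4 that passed were among these 56. All 15626 genes tested at that depth had a median of -0.03, with 8497 negative, 353 called lower and 242 higher. Over members and other genes of the segment together (n = 110) the median was -0.30 at that depth, beside -0.06 elsewhere on chromosome 2. Lowering the depth to a mean of 10 counts brought the segment's median to -0.21. In windows of 5 Mb it was -0.20 in the window that ends at 170 Mb, -0.06 at 170 to 175 Mb, between -0.39 and -0.30 in the windows from 175 to 200 Mb, and -0.12 and -0.06 in the next windows beyond 200 Mb. As a description of scale, 96 windows of 30 Mb on other chromosomes, on a fixed grid and with at least 50 genes each, had medians from -0.15 to 0.08. On the same grid the windows of chromosome 2 that hold the members had -0.11 (150 to 180 Mb), inside that range, and -0.23 (180 to 210 Mb), below it. Because the segment was chosen on this contrast, nothing is read from their place beside the other windows.

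**Figure D3:**
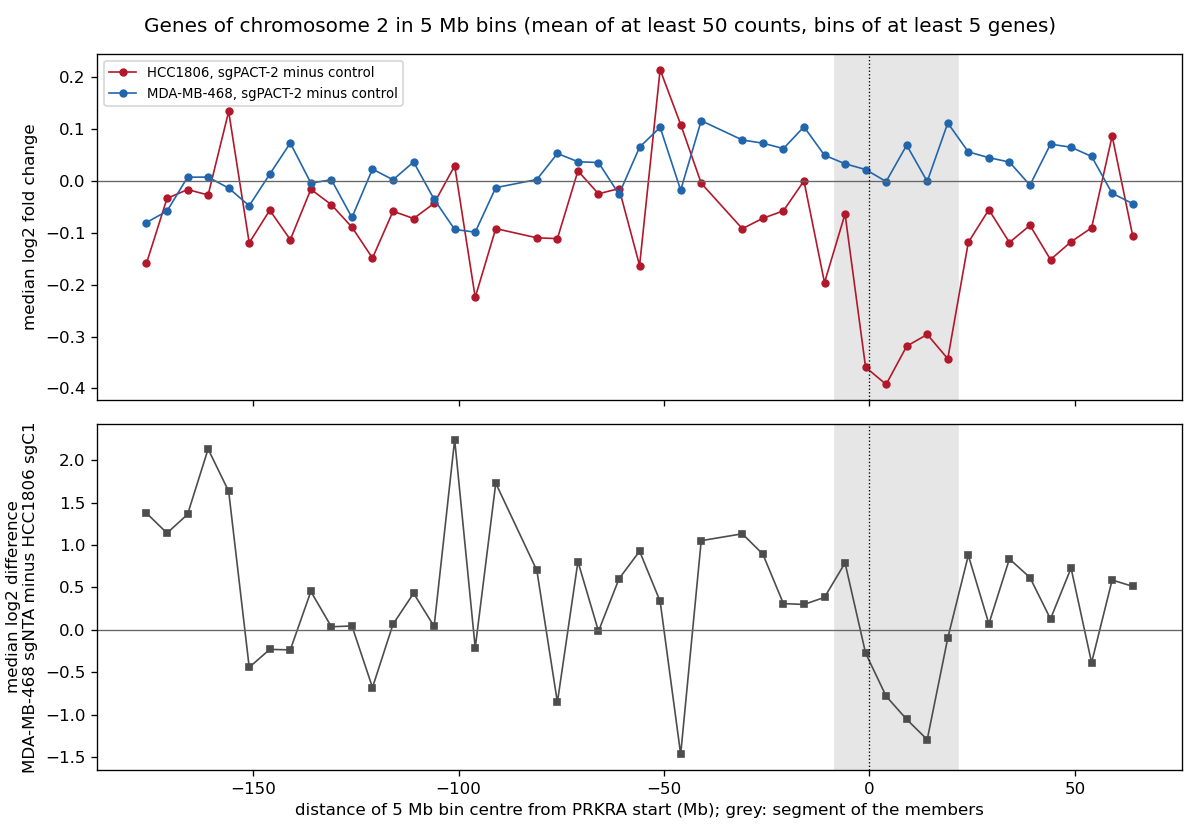
Medians over genes in 5 Mb windows of chromosome 2 (x axis, distance of the window centre from the PRKRA start, Mb) of the log2 fold change after PACT depletion in both lines (top) and of the log2 difference between the control cells (bottom); the grey band is the segment. In HCC1806 the windows from 175 to 200 Mb lie between -0.39 and -0.30, while those of MDA-MB-468 there lie between -0.0014 and 0.11.

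Library by library, the members' decrement was present in each depleted HCC1806 library, while the controls themselves were not level. Against the mean of the 3 controls, the median log2 CPM over members was -0.37, -0.38 and -0.33 in the depleted libraries, and 0.16, -0.03 and -0.14 in the controls. Control replicate 1 was thus high and control replicate 3 low by amounts that are not small beside the decrement. Member transcripts were poor in G and C (median 39.7%, against 47.9% over genes tested) and long (median exon length 5900 bases, against 2995). After removal of each library's trends with GC content and length, the control medians came to 0.09, 0.00 and -0.09 and the depleted ones to -0.30, -0.33 and -0.35. The median fold change of the model was -0.44 without control replicate 3 and -0.27 without control replicate 1. With library size alone as the scale it was -0.25, where the median of all genes moved to 0.13, so that the gap between members and all genes was -0.38 on either scale.

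**Figure D4:**
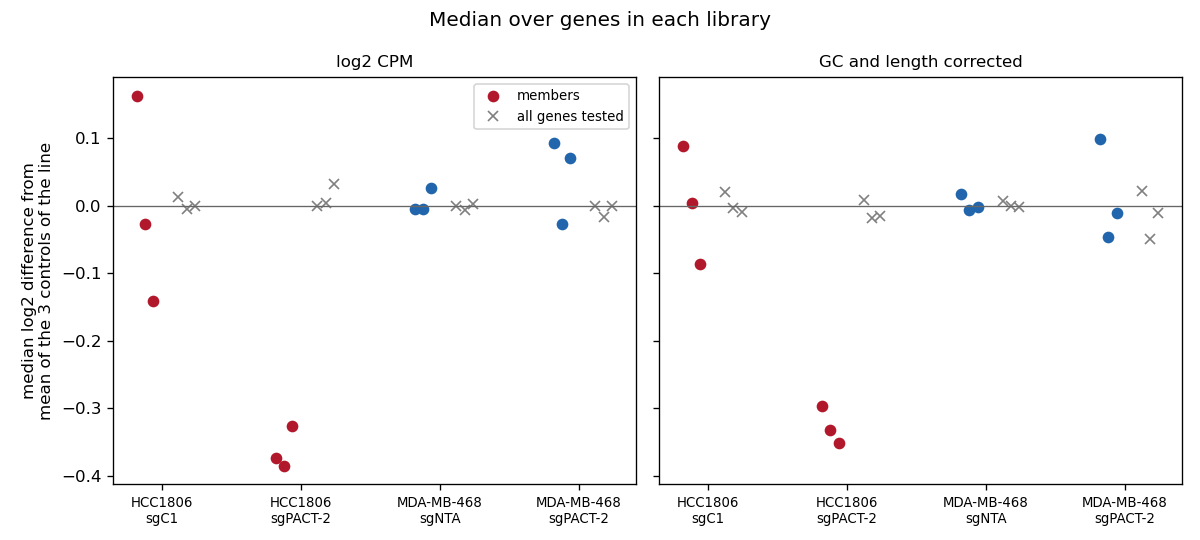
Median over the 58 members (filled circles) and over all genes tested (crosses) of the log2 difference from the mean of the line's 3 control libraries, for each library, before (left) and after (right) removal of GC and length trends. The depleted HCC1806 libraries lie at -0.38 to -0.33 before and -0.35 to -0.30 after, below all their controls, and the MDA-MB-468 libraries lie within 0.10 of 0.

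In MDA-MB-468, where the members were not chosen by the result, 0 of 58 passed the threshold in edgeR in either direction (background 0.17%), and 0 had an unadjusted p-value under 0.05 (background 5.27%). DESeq2 called 0 as well, with 1 at an unadjusted p-value under 0.05. The median log2 fold change was 0.02, with 24 members negative (background 50.9%) and 34 positive, and the SE of members with at least 50 counts ran from 0.09 to 0.31 (median 0.13). What size of shift could have passed here was not computed. Control and depleted libraries did not overlap for 1 member that was lower, RBM45 (background 6.94%), and for 6 that were higher, OLA1, TTC30A, FAM171B, NABP1, STK17B and MOB4 (background 6.2%). The shared spread is wider than that of this line alone: with MDA-MB-468 fitted by itself, FAM171B passed (edgeR, adjusted p-value 0.00732, log2 fold change 0.33), as did 1.51% of all genes in that fit. There 8 members had an unadjusted p-value under 0.05 (edgeR). With library size only that number was 3, and with the replicate block 2. The share of all genes at that level was not counted in these alternatives.

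FAM171B measured 75.1, 67.5 and 68.9 CPM in MDA-MB-468 controls and 88.8, 84.6 and 90.1 in depleted libraries (0.32, SE 0.16; edgeR with all libraries, adjusted p-value 0.959). In HCC1806 the same gene measured 38.6, 36.4 and 28.97 CPM in controls and 15.3, 21.7 and 28.5 after depletion, the opposite order. TTC30A measured 13.2, 11.3 and 13.2 and 16.7, 13.9 and 16.9 CPM in MDA-MB-468 (0.33, SE 0.17; edgeR, adjusted p-value 0.981). Its near-copy TTC30B, at 10.98, 11.3 and 11.03 and 13.1, 9.93 and 12.9 CPM, had overlapping groups (0.11, SE 0.18). RBM45, which lies beyond OSBPL6 as seen from PRKRA, measured 10.8, 9.49 and 11.3 CPM in controls and 9.12, 8.78 and 9.26 after depletion (-0.22, SE 0.15). The members nearest PRKRA on the other side, FKBP7 at 3.46, 4.14 and 4.94 and 3.68, 3.61 and 4.28 CPM and PLEKHA3 at 52.5, 52.4 and 54.7 and 50.3, 50.6 and 59.8, overlapped, as did OSBPL6 at 35.2, 34.4 and 31.7 and 37.8, 33.5 and 36.4.

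The chaperonin pair was among the lowest members of HCC1806. In MDA-MB-468 HSPD1 measured 406, 400.2 and 403 CPM in controls and 442, 391 and 424 in depleted libraries (0.056, SE 0.17). HSPE1 measured 28.3, 26.8 and 29.1 and 30.1, 23.2 and 21.8 CPM (-0.17, SE 0.20), with depleted replicate 1 above the controls and the other two below. ATP5MC3 measured 59.9, 54.7 and 60.2 and 57.6, 51.7 and 50.5 CPM (-0.13, SE 0.11). The groups of all of these genes overlapped. ORMDL1 had -0.034 (SE 0.12) and PMS1 0.18 (SE 0.14). CERKL gave 0 counts in every control library and WIPF1 at most 1, so that no fold is given for them. Whether the effect of depletion on the members differs between the lines was not tested, since 1 side of that difference chose them.

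Members also differed in level between the lines without depletion, in a share close to that of all genes. Between MDA-MB-468 sgNTA and HCC1806 sgC1 cells, 45 of 58 members passed (edgeR, adjusted p-value under 0.05; background 74.2%), 24 higher in MDA-MB-468 (background 34.2%) and 21 lower (background 40.1%). Line and control guide cannot be told apart in this comparison. The median over members was 0.16, beside -0.26 over all genes, and it turned negative under other settings (-0.10 with library size only, -0.14 over genes with at least 50 counts, -0.01 after the GC and length correction). The median of all genes moved as well, to -0.51, -0.01 and -0.07 in the same order. Of these settings, members lay below all genes only over genes with at least 50 counts. Split by position, of the 23 members before PRKRA 15 were higher and 3 lower in MDA-MB-468 (median 0.71), and of the 35 after it 9 were higher and 18 lower (median -0.33). The signs of these medians were the same in all settings tried, with ranges of 0.47 to 0.82 and -0.61 to -0.31. In the main model the median after PRKRA lay near that of all genes (-0.26). It lay further below all genes at a mean of at least 50 counts (-0.61 against -0.01). The same held after the GC and length correction (-0.36 against -0.07). Of the 148 other genes tested in the segment, 93 were lower and 20 higher in MDA-MB-468 (median -1.74). Some of them, among them HOXD9, HOXD10 and HOXD11, had 0 counts in MDA-MB-468 and were tested only through their HCC1806 counts. Such genes could only come out lower, so nothing is read from these numbers.

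The members higher in HCC1806 include genes nearly silent in MDA-MB-468. GULP1 measured 69.3, 61.1 and 46.1 CPM in HCC1806 controls and 0.306, 0.608 and 0.674 in MDA-MB-468 controls (-6.78, SE 0.31; edgeR, adjusted p-value 2.6e-12). SLC40A1 measured 14.9, 20.8 and 18.1 and 0.362, 0.335 and 0.374 CPM (-5.63, SE 0.35; edgeR, adjusted p-value 1.7e-10). Ferroportin RNA stayed at this low level in depleted MDA-MB-468 cells, at 0.484, 0.241 and 0.185 CPM. ITGA6 measured 1773, 1223 and 1027 CPM in HCC1806 and 154, 171 and 166 in MDA-MB-468 (-3.03, SE 0.19; edgeR, adjusted p-value 2.1e-10). Against a floor of 3 counts per library (0.0913 CPM, counting error only), CERKL was at least 33.7-fold lower and WIPF1 at least 10.2-fold lower in MDA-MB-468. NABP1 (-2.98), INPP1 (-2.86) and SLC39A10 (-2.46) were also lower there, all past the threshold.

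In the other direction, MFSD6, a transporter-family membrane protein, measured 38.7, 45.2 and 43.3 CPM in HCC1806 and 131, 138 and 133 in MDA-MB-468 (1.66, SE 0.11; edgeR, adjusted p-value 2.7e-10). OLA1 measured 42.6, 29.3 and 27.5 and 97.1, 105 and 106 CPM (1.63, SE 0.14; edgeR, adjusted p-value 8.7e-09). HAT1 measured 21.7, 20.1 and 16.3 and 56.8, 57.01 and 60.03 CPM (1.58, SE 0.13; edgeR, adjusted p-value 8.3e-09). The libraries of the lines were far apart in each of these genes. RAPGEF4 was low in both lines, at 1.38, 1.298 and 1.82 CPM in HCC1806 and 4.71, 3.803 and 4.67 in MDA-MB-468 (1.55, SE 0.25; edgeR, adjusted p-value 2.3e-05). The head-to-head pairs did not always keep step between lines: HSPD1 (-0.10) and HSPE1 (0.049) did not differ past the threshold, CIR1 (0.71) and SCRN3 (1.44) were both higher in MDA-MB-468, and ORMDL1 (0.40) was higher while PMS1 (-0.77) was lower. Per kb of exon, HSPD1 was the most abundant member in MDA-MB-468 (94.9 CPM per kb) and ITGA6 in HCC1806.

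**Figure D5:**
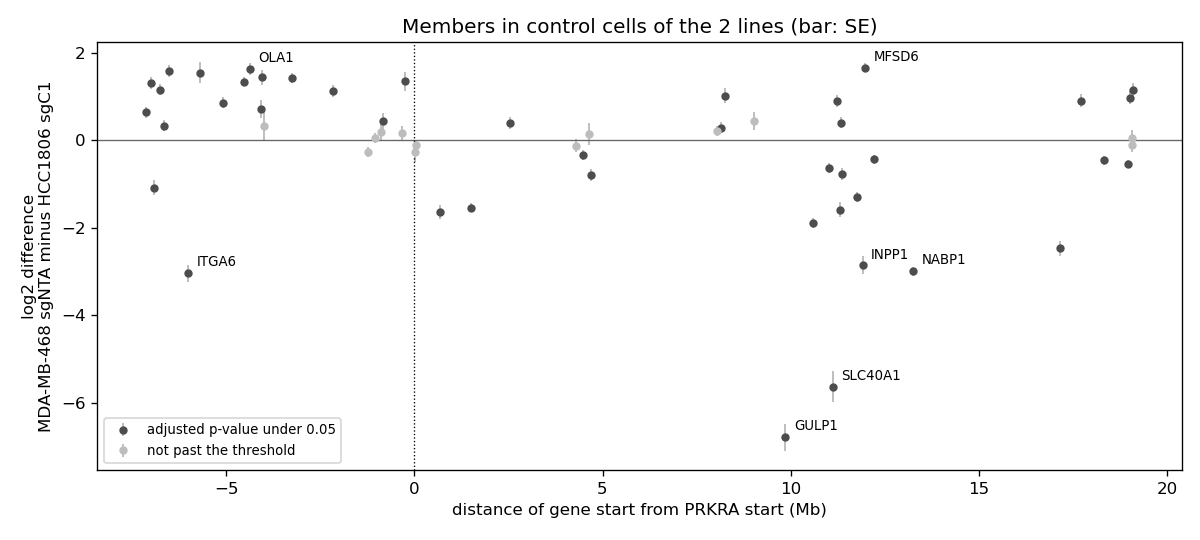
Log2 difference (y axis, MDA-MB-468 sgNTA minus HCC1806 sgC1, with SE) of each member against the distance of its start from the PRKRA start (x axis, Mb); dark points passed an adjusted p-value of 0.05, and CERKL and WIPF1, at the floor in MDA-MB-468, are not drawn. Of the 23 members before PRKRA, 15 are higher and 3 lower in MDA-MB-468, and of the 35 after it, 9 are higher and 18 lower. Over all genes tested 34.2% are higher and 40.1% lower.

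Many members work in complexes whose other subunits are encoded elsewhere, and 55 such partner genes in 8 lists were read beside them. In HCC1806 39 of 55 partners were negative (background 48.5%), with a median of -0.12. Past the threshold 3 were lower (background 1.32%) and 0 higher (background 1.16%). In MDA-MB-468 0 of 55 passed (background 0.17%), with a median of -0.02. Because the members were chosen on this contrast and the partners were not, a gap between them is no finding, and the values are given side by side. The median was -0.11 for the other SF3b subunits (SF3B1 -0.37), -0.16 for mitochondrial chaperones and proteases, -0.06 for other TFIIIC subunits (GTF3C3 -0.49), -0.18 for mismatch repair, -0.12 for dynein subunits, -0.09 for integrin beta chains and -0.02 for intraflagellar transport. For the ATP synthase, the 7 partner genes outside the segment were all negative with a median of -0.37, and 2 of them, ATP5F1A and ATP5F1B, passed, beside -0.45 for ATP5MC3. The third partner past the threshold was SF3B5, at -0.70.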

How the data were processed

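Total RNA of 12 libraries was read. The deposited table holds raw counts per Ensembl gene from the authors, 1 column per library; per the submitters' processing notes the build was GRCh38 and the tools Trimmomatic 0.36, STAR 2.5.2b and featureCounts (Subread 1.5.2), with the strand setting and annotation release not given in the sources used here. Per the labels, RNA was DNase-treated and rRNA-depleted. edgeR 4.0.16 (R 4.3.3) with TMM, filterByExpr and 1 quasi-likelihood model over all 12 libraries (1 coefficient per group, shared spread, biological coefficient of variation 0.171) tested 27029 genes, two-sided, with Benjamini-Hochberg adjustment over all of them. GENCODE 29 matched 56898 of 57500 genes. GC and length trends were removed by lowess (span 0.3; values for 99.3% of tested genes). Alternatives included DESeq2 1.42.0; figures used matplotlib 3.10.9. The steps were tested on simulated data.

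The members and lists were chosen with earlier results of these data known. Library values were given for PRKRA, its nearest members, the head-to-head and paralogous pairs, the genes at each limit, the 5 lowest and 3 highest members in HCC1806 (mean of at least 50 counts in that line), the 4 largest differences each way between control lines (for genes that averaged 50 counts or more in whichever line was higher), and the 3 smallest p-values each way in MDA-MB-468. Members outside this rule were named after their values were seen. Results of some other genes of the segment are not reported here. Separate cultures are not stated, so p-values measure the spread between libraries, which may be technical; no 2 replicates agreed within sampling noise. Same-numbered control and depleted libraries deviated together in HCC1806 (r = 0.479, 0.294 and 0.152 across genes), but less so in MDA-MB-468 (0.116, 0.075 and 0.106). In HCC1806, control replicate 2 and depleted replicate 3, with unlike numbers, also reached 0.351. The main model did not pair libraries, and the replicate block paired them by number in both lines.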

Additional observations from a re-analysis of the deposited data

Results flagged for a closer look

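FAM171B and NABP1 were the members whose libraries separated in opposite directions in the lines. FAM171B was below all controls in every depleted HCC1806 library (log2 fold change -0.66) and above all controls in every depleted MDA-MB-468 library (0.32). NABP1 showed the same order, with -0.63 and 0.12. Over all genes tested, 8.17% were lower without overlap in HCC1806 and 6.2% were higher without overlap in MDA-MB-468. How many genes met both was not counted, so it is not known whether these 2 of 58 members are more than the background. The difference between the lines was not tested for either gene, and the HCC1806 values belong to the comparison that chose the members.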

How the results depend on the processing

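The number of members called in HCC1806 (13) depended on the model, as did the share of all genes called (2.49%). It was 4 with library size only (3 lower and 1 higher, 2.93% of all genes) and 22 with no filter on low counts (3.04%). With the replicate block it was 27 (7.2%), and with the GC and length correction and the replicate block 30 (8.29%). With the 2 groups alone it was 0 (0.315%). At an adjusted p-value under 0.01 it was 2, where the share of all genes was not counted. When each library was left out it was 2 to 19 (1.03% to 6.15%), the highest without depleted replicate 1. The cause was not tested. The members' median there (-0.38) was -0.25 with library size only and -0.44 to -0.27 with each library left out; with 29 members free of exon overlaps, chosen after seeing the data, it was -0.37. For the whole segment the median of -0.30 was -0.21 at a depth of 10 counts or more. In MDA-MB-468 the count was 0 in every alternative except the 2 groups alone, where it was 1 (FAM171B; 1.51% of all genes). Between control lines the count of 45 ran from 40 to 48. It was 40 at an adjusted p-value under 0.01, where the share of all genes was not counted. With no library of these groups left out and a threshold of 0.05, that share ran from 47.7% (DESeq2) to 81.8% (genes of mean count 50 or more). The median of 0.16 reversed sign with library size only (-0.10, all genes -0.51) and over genes of mean count 50 or more (-0.14, all genes -0.01). It also did so with the GC and length correction (-0.013, all genes -0.068) and with that and the replicate block (-0.0097, all genes -0.065). With each library left out it ran from 0.080 to 0.25. COQ10B in HCC1806 ran from -0.011 to 0.21 and SLC25A12 from -0.0033 to 0.23 with each library left out. The replicate block changed no call of PRKRA or of the members tested in MDA-MB-468. Depth limits CERKL and WIPF1, which were at the floor in MDA-MB-468 controls.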

Other observations

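Other genes of the segment were read after their values were seen, as a description of the comparison that chose the segment. Among those that passed in HCC1806 were NEMP2, a nuclear envelope protein (25.5 ± 3.49 to 16.0 ± 2.42 CPM, SD, n = 3 each), CAVIN2, a caveolar coat protein (9.24 ± 0.839 to 4.28 ± 0.934), and PGAP1, which remodels GPI anchors (78.3 ± 7.26 to 55.9 ± 10.5). A smaller negative value that did not pass was found for NFE2L2, which encodes the stress factor NRF2 (-0.27). Genes of the HOXD cluster, which patterns limbs and the body axis, were close to 0 in HCC1806: HOXD10 was at -0.014, HOXD11 at -0.050 and HOXD9 at 0.14. In MDA-MB-468 the same 3 HOXD genes gave 0 counts in all 6 libraries.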
